A study of Homo sapiens with 3 samples.

Results

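The comparison described here is 293T cells expressing dCas9-VP64 with the guide RNA sgL1ASP #1 against 293T cells expressing dCas9-VP64 with a mock guide RNA vector, with 1 RNA-seq library for each condition. The genes described are the 12511 of 23284 listed genes with FPKM of at least 1 in both libraries. FPKM is the number of sequenced fragments of a gene, scaled to the length of its exons and to the size of the library. Changes are differences of log2(FPKM + 0.1), sgL1ASP #1 minus mock, on which the change of a low gene comes out too small. The remaining library of the series, in which the activator was guided by sgL1ASP #3, is given beside them, and its comparison with mock shares the mock library. 293T is an embryonic kidney cell line. dCas9-VP64, which the mock cells carry too, is a Cas9 that binds DNA without cutting it, joined to an activation domain, and the study introduced such plasmids by transfection, so cells with and without them may be measured together. The sources do not say from how many cultures each library came. With no replicate in any condition, no difference has a test across samples.

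L1 is the retrotransposon that still copies itself in the human genome. Its start holds a promoter for its own transcript and, on the opposite strand, an antisense promoter (ASP), from which RNA can run outwards into the flanking DNA and into neighbouring genes. A guide against this sequence meets a very large number of L1 copies, and the comparison asks which cellular transcripts differ when the activator is brought there. Transcripts of L1 itself were not analysed here.

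The libraries looked like 293T cells and like each other. Of 12 genes known to be expressed in this line, 11 had FPKM of at least 1 in both libraries, with a summed FPKM of 1085 in mock and 1174 in sgL1ASP #1, led by VIM. The leukocyte, fibroblast, keratinocyte and hepatocyte markers were at or near 0, with list sums between 0 and 5.85. In bulk RNA, fewer cells of a kind and less RNA per cell cannot be told apart. The depth was estimated from the steps between low values at 10.5 M reads in mock and 10.3 M in sgL1ASP #1, and errors given below as counting errors are standard errors of the log2 change worked out from it, which cover counting alone.

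Most genes differed little between mock and sgL1ASP #1. The median change was 0.0012, with quartiles of -0.093 and 0.090, and 8310 genes (66.4%) lay within 1.1-fold. FPKM was more than 1.5-fold higher with sgL1ASP #1 for 117 genes (0.935%) and more than 1.5-fold lower for 136 (1.09%), 253 in all (2.02%), and these shares are the background for every count below. With both FPKM sums set equal, 82 genes were higher and 224 lower, and the median of all genes was -0.092. That choice moved the median of every gene list below by -0.0936 to -0.0916 and changed the sign of 26 of 46 list medians, so a list is to be read against the median of all genes. In the values as deposited, 31 genes were more than 2-fold higher and 23 more than 2-fold lower. The other pairs of libraries differed about as often, since 265 of 12461 genes (2.13%) were past 1.5-fold with sgL1ASP #3 against mock and 270 of 12464 (2.17%) with sgL1ASP #1 against sgL1ASP #3. A further 254 genes reached FPKM 1 with sgL1ASP #1 alone and 260 with mock alone.

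**Figure D1:**
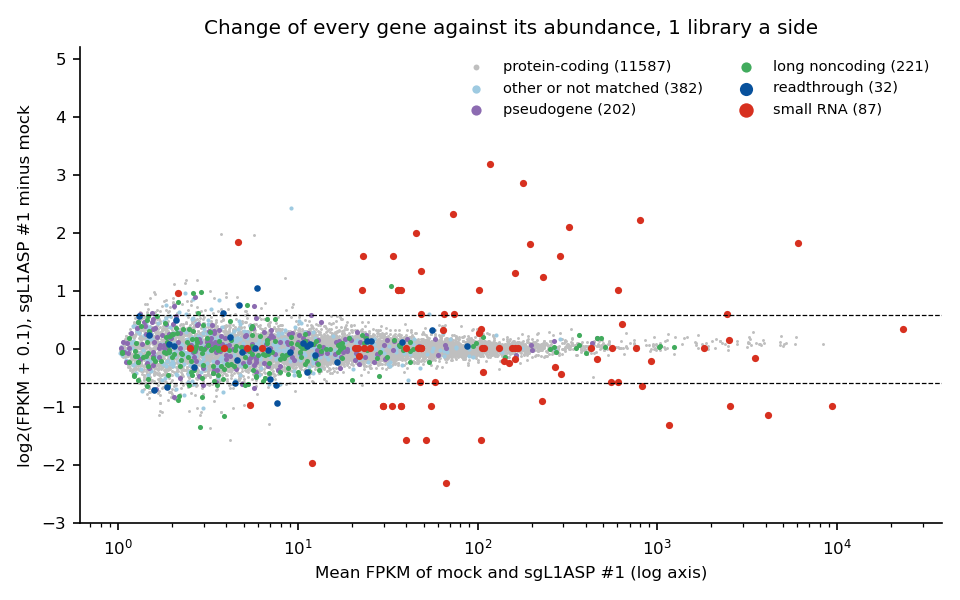
The difference of log2(FPKM + 0.1), sgL1ASP #1 minus mock, is plotted against the mean FPKM of both libraries on a log axis, 1 point a gene, coloured by kind of gene. The dashed lines mark 1.5-fold. Protein-coding genes (11587 points) narrow around 0 as abundance rises, while the 87 small RNA genes spread from -2.30 to 3.18, also at high FPKM. In such short genes a few reads become a high FPKM, so high FPKM is not high abundance there.

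The size of the differences depended on abundance. At FPKM 1 to 3, the median absolute change of 1780 genes was 0.190, and 7.47% were past 1.5-fold. It was 0.121 for 3565 genes at FPKM 3 to 10, 0.0789 for 3910 genes at 10 to 30 and 0.0607 for 2410 genes at 30 to 100. Counting error alone, worked out from the estimated reads of each gene, gave 0.1998, 0.110, 0.0693 and 0.0475 in these classes. The spread between libraries was therefore close to counting error below FPKM 10. At higher FPKM it stood further above counting error, at 0.0539 for 619 genes at FPKM 100 to 300 against 0.0324 from counting. At FPKM 1000 and above, the median absolute change of 71 genes was 0.101 with sgL1ASP #1 and 0.0108 from counting. The same class gave 0.0698 with sgL1ASP #3 against mock.

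**Figure D2:**
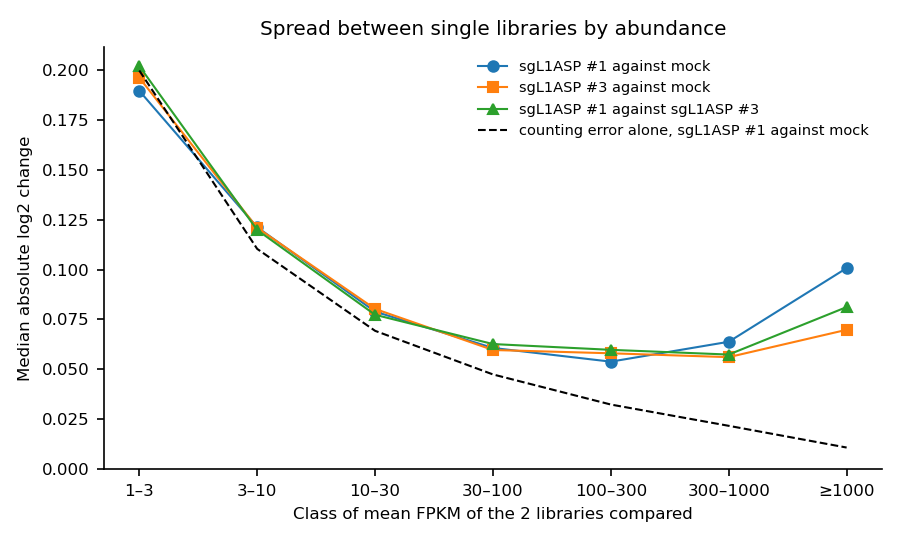
The median absolute log2 change is plotted for 7 classes of mean FPKM, for each pair of libraries, with the value from counting error alone for sgL1ASP #1 against mock as a dashed line. At FPKM 1 to 3 the 3 pairs are at 0.190, 0.196 and 0.202, and at FPKM 1000 and above sgL1ASP #1 against mock is the highest, at 0.101.

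Direction also moved with abundance. The median change was -0.019 at FPKM 3 to 10, 0.0069 at 30 to 100, 0.019 at 100 to 300, 0.054 at 300 to 1000 and 0.095 at 1000 and above. In the top class 63 of 71 genes were higher with sgL1ASP #1, and 46 of the 71 code for cytosolic ribosomal proteins. The median of the same 71 genes was 0.059 with sgL1ASP #3.

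The share of genes past 1.5-fold differed widely with the kind of gene. Among 11587 protein-coding genes, 67 rose and 90 fell (1.35% in all). Of these 157, 155 had mean FPKM under 10, and 102 had mean FPKM under 3. Among 87 small RNA genes, 26 rose and 18 fell (50.6%). Among 32 readthrough genes, which join the exons of neighbouring genes, 3 rose and 4 fell (21.9%). Long noncoding RNA genes gave 6 rises and 11 falls of 221 (7.69%). Of the 38 genes past 1.5-fold with mean FPKM of 30 or above, 36 were small RNA genes. The other 2 were RNU11, the RNA of a minor spliceosome particle, at 42.7 in mock and 64.9 with sgL1ASP #1, and PCNA-AS1, at 21.0 and 44.8.

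Protein-coding genes of moderate or high abundance rarely passed 1.5-fold. Of 6833 with mean FPKM of at least 10, 1 rose and 1 fell (0.0293%). ACADS, a mitochondrial enzyme that oxidises short fatty acids (chr12:121163577-121177811, GRCh37, plus strand), was at FPKM 8.02 in mock, 12.1 with sgL1ASP #1 and 10.9 with sgL1ASP #3. Its change was 0.59 with a counting error of 0.15. C15orf40 (chr15:83657193-83680393, GRCh37, minus strand) was at 27.4, 17.8 and 23.3, a change of -0.62 with a counting error of 0.18.

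The next largest differences in this set stayed under 1.5-fold. KLHDC4 was at FPKM 13.3 in mock and 19.9 with sgL1ASP #1. B3GALT6, an enzyme that builds the linker of proteoglycans, was at 12.2 and 18.2. MFSD3 was at 13.9 and 20.4, and FKBP11, a prolyl isomerase of the secretory pathway, at 8.20 and 12.001. For each of these 4 the sgL1ASP #3 value lay between the others. TEN1, a protein of the telomere-capping CST complex, was at 14.2 in mock, 20.5 with sgL1ASP #1 and 13.8 with sgL1ASP #3. METRN, a secreted factor of glial cells, was at 14.5, 20.8 and 13.99. MT2A, a metal-binding metallothionein, was at 9.02, 12.8 and 10.3. For TEN1 and METRN the sgL1ASP #3 value lay just below mock.

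On the lower side, TRMT61B, a methyltransferase of mitochondrial RNA, was at FPKM 14.5 in mock, 9.84 with sgL1ASP #1 and 11.9 with sgL1ASP #3. COMMD1 was at 14.3, 9.74 and 12.9. WWOX, an oxidoreductase gene spread over a fragile site, was at 16.9, 11.6 and 16.1. SNUPN, the adaptor that carries capped small nuclear RNAs into the nucleus, was at 16.5, 11.6 and 9.99. CIDEB was at 13.4, 9.64 and 10.4, and ABHD3 at 25.9, 18.9 and 19.4. In all 6 both guide libraries lay below mock. KRTAP19-1, a keratin-associated protein gene with a short transcript, was the most abundant of them, at 513, 368 and 439.

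The largest changes of protein-coding genes were at low FPKM. MUTED, a subunit of the complex that forms lysosome-related organelles, had the largest rise, from FPKM 1.44 in mock to 5.98 with sgL1ASP #1, and was at 10.5 with sgL1ASP #3. AS3MT, an arsenic methyltransferase, had the largest fall, from 6.32 to 2.06, and was at 3.13 with sgL1ASP #3. Both differed from mock in the same direction in both guide libraries, but both share exons with listed readthrough genes, so their values are uncertain. C1orf182 fell from 4.74 to 1.78 and was at 4.23, and the noncoding LOC643339 fell from 4.12 to 1.56 and was at 1.55. Of further genes, OSTN, SLC16A4 and SGPP2 were chosen after their values were seen, and each changed by more than 4 times its counting error. OSTN, which encodes the secreted peptide osteocrin, was at FPKM 9.81 in mock, 3.98 with sgL1ASP #1 and 8.27 with sgL1ASP #3. SLC16A4, a member of the monocarboxylate transporter family and the largest fall among 178 solute carrier genes, was at 5.07, 2.36 and 2.55. SGPP2, a phosphatase of sphingosine-1-phosphate, was at 1.25, 2.82 and 1.62. OSTN and SGPP2 stood apart with sgL1ASP #1 alone, while SLC16A4 was low in both guide libraries.

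Among lists of protein-coding genes, genes of glucose breakdown and genes known to respond to low oxygen had the highest medians. The low-oxygen list was made after values were seen, and the glycolytic list with earlier results of these data known. Their rank may follow from that choice. Glycolysis turns glucose into pyruvate in the cytosol, and lactate dehydrogenase then turns pyruvate into lactate. Many of its genes are also targets of the hypoxia-inducible factors, which bind a short DNA element whose core reads ACGTG and which prolyl hydroxylases and VHL remove when oxygen is present.

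Of 19 glycolytic genes, glucose transporters and lactate dehydrogenases included, 18 were higher with sgL1ASP #1, with a median change of 0.16 against 0.0012 for all genes. None passed 1.5-fold in either direction. The change was above 0.2 for 8 of the 19 (42.1%), against 9.77% of all genes and 5.28% of genes at FPKM 10 to 100. In the sgL1ASP #3 library, 16 of the 19 were above mock, with a median of 0.13.

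The order of the pathway shows where the larger values lay. At glucose entry, SLC2A1 was at FPKM 38.0 in mock, 47.4 with sgL1ASP #1 and 43.3 with sgL1ASP #3. SLC2A3, the largest change of the list at 0.34, was at 16.6, 21.0 and 18.6. Both transporters thus had their highest value with sgL1ASP #1. Of the hexokinases, HK2 was at 24.2, 30.3 and 27.4, while HK1 was at 47.6, 47.5 and 47.5. The phosphofructokinase PFKL was at 41.2, 49.9 and 45.4, and PFKP at 24.0, 28.5 and 25.8, while the muscle form PFKM was at 39.7, 41.4 and 40.1. The paralogs within these steps therefore differed in size of change.

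Further down, ALDOA was at 1172 in mock, 1352 with sgL1ASP #1 and 1358 with sgL1ASP #3. GAPDH, the most abundant of the list, was at 2110, 2327 and 2311. PGK1 was at 225, 277 and 270, a change of 0.30 with a counting error of 0.018. ENO1 was at 1072, 1199 and 1158. LDHA, which makes lactate, was at 331, 398 and 387, while LDHB was at 927, 976 and 911. For ALDOA, GAPDH, PGK1, ENO1 and LDHA both guide libraries lay above the mock library, which they share. The sgL1ASP #1 change of each was above 5 times its counting error, which does not set them apart from other abundant genes. At FPKM 1000 and above, where ALDOA, GAPDH and ENO1 lie, the median absolute change was 0.101 against 0.0108 from counting. In that class 63 of 71 genes were higher.

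The 33 hypoxia-inducible genes outside glycolysis were listed after the values of PDK1, NDRG1 and CXCR4 had been seen, so their counts describe and support nothing. Of them, 30 were higher with sgL1ASP #1, with a median of 0.25. The change was above 0.2 for 20 (60.6%) and below -0.2 for 1. Without PDK1, NDRG1 and CXCR4, 27 of 30 were higher, with a median of 0.24. Past 1.5-fold, 1 rose and 1 fell (6.06%, against 2.02% of all genes). Against the same mock library, 26 of the 33 were higher with sgL1ASP #3, with a median of 0.13, and 9 were above 0.2.

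By role, PDK1, the kinase that switches off pyruvate dehydrogenase, was at FPKM 11.4 in mock, 15.3 with sgL1ASP #1 and 12.8 with sgL1ASP #3. BNIP3, which acts in the removal of mitochondria, was at 44.7, 57.4 and 56.3. FAM162A was at 87.3, 111 and 97.8. Collagen hydroxylation enzymes were represented by P4HA1, at 56.3, 70.3 and 64.9, and PLOD2, at 44.5, 53.005 and 46.7. Each of these 5 was highest with sgL1ASP #1.

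Regulators showed the same order in part. The fructose bisphosphate regulators PFKFB3 and PFKFB4 were at 24.2 and 6.41 in mock and at 28.7 and 8.25 with sgL1ASP #1. BHLHE40, a repressor of transcription, was at 35.9, 45.2 and 45.5, and the mTORC1 inhibitor DDIT4 at 81.6, 95.0 and 91.7. The histone demethylase KDM3A was at 26.5 in mock, 32.0 with sgL1ASP #1 and 26.3 with sgL1ASP #3. NDRG1 was at 52.3, 69.5 and 61.0, and the chemokine receptor CXCR4 at 17.0, 22.6 and 21.5. VEGFA, the angiogenic factor and most abundant gene of the list, was at 95.6, 105 and 107.

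Both calls past 1.5-fold came from low genes. MIR210HG, the host transcript of miR-210, was at 3.86 in mock, 6.58 with sgL1ASP #1 and 4.48 with sgL1ASP #3. ANKRD37 was at 2.92, 1.90 and 2.83. CA9, a carbonic anhydrase that is a common marker of low oxygen, was listed at 0 in the 3 libraries.

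Genes of the hypoxia-inducible factors and of proteins that act on them differed by gene. A list of 7, also made after values were seen, had 1 higher and 6 lower, with a median of -0.084. It leaves out the prolyl hydroxylases EGLN1 and EGLN3, which were placed in the hypoxia-inducible list because they are targets as well as sensors, and both of them were higher. EGLN1 was at FPKM 9.78 in mock, 10.9 with sgL1ASP #1 and 10.3 with sgL1ASP #3, and EGLN3 at 3.48, 4.60 and 5.60. HIF1A was at FPKM 23.4 in mock, 21.5 with sgL1ASP #1 and 23.3 with sgL1ASP #3, and EPAS1 at 5.53, 4.22 and 4.94. VHL was at 45.7, 47.4 and 47.0. Pyruvate dehydrogenase and citric acid cycle genes, listed in the same way, had 8 of 20 higher and a median of -0.027. PDHB was at 75.2, 66.2 and 66.9 and PC, pyruvate carboxylase, at 13.1, 10.8 and 12.2. With both FPKM sums set equal, the median was 0.069 for the glycolytic list and 0.16 for the hypoxia-inducible list.

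**Figure D3:**
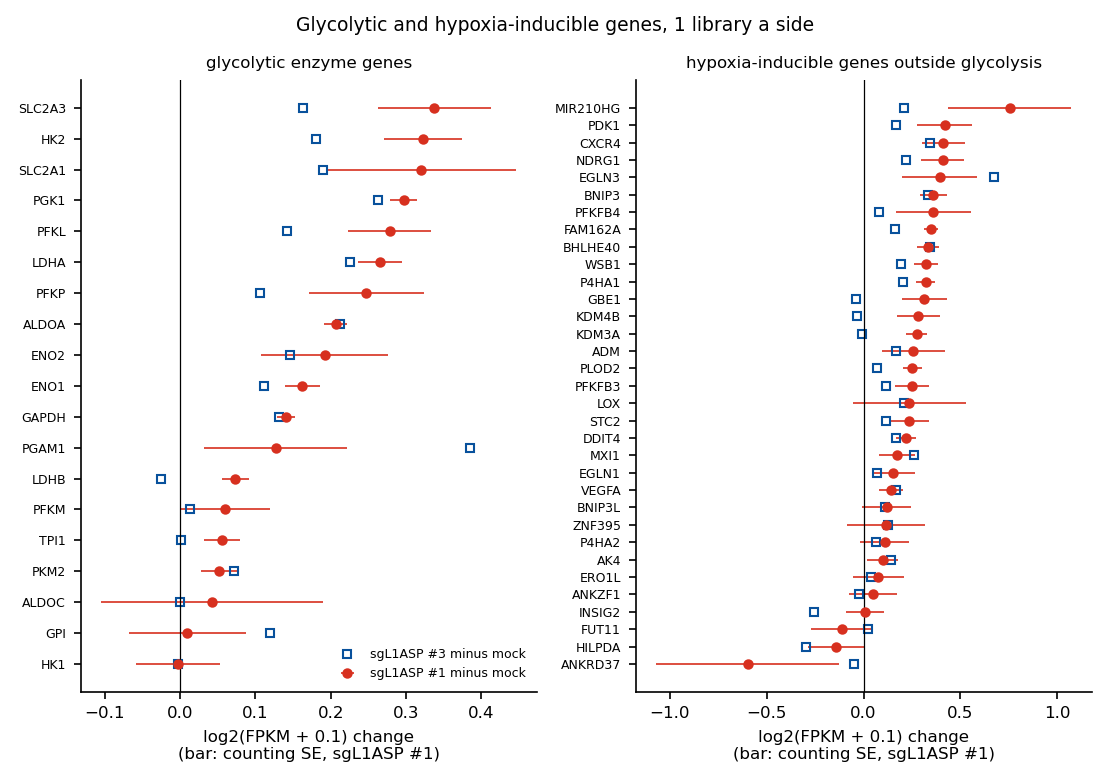
The log2 change of every listed glycolytic gene (left, 19 genes) and every hypoxia-inducible gene outside glycolysis (right, 33 genes) is shown for sgL1ASP #1 minus mock (filled, with the counting error as a bar) and sgL1ASP #3 minus mock (open). Filled points lie above 0 for 18 genes on the left and 30 on the right, from -0.0027 for HK1 to 0.34 for SLC2A3 and from -0.60 for ANKRD37 to 0.75 for MIR210HG.

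Promoters of both groups are shown because most members differed in the same direction. The 250 bases before the RefSeq start (GRCh38.p14) were searched for ACGTG on both strands. It was present in 8 of 18 matched glycolytic promoters (44.4%) and 17 of 27 matched hypoxia-inducible promoters (63.0%). It was present in 2339 of 9794 matched promoters of all genes described (23.9%) and in 5101 of 27305 promoters of the table (18.7%). The longer palindrome CACGTG, which holds this core on both strands, was present in 9.28% of the promoters of the genes described. Genes on the second list are known for this element, and many glycolytic genes are known targets of the factors that bind it. The share in both lists therefore follows in part from the choice of genes. Below are the promoters of LDHA (chr11:18394313-18394562, plus strand), PGK1 (chrX:78103998-78104247, plus strand) and BNIP3 (chr10:131981924-131982173, minus strand), 5′ to 3′, with ACGTG and its reverse complement CACGT in capitals.
LDHA: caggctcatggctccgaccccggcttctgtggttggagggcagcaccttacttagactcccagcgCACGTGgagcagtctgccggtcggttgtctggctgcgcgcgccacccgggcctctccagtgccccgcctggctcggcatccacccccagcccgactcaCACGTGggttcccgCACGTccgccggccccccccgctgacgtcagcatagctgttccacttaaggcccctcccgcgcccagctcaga
PGK1: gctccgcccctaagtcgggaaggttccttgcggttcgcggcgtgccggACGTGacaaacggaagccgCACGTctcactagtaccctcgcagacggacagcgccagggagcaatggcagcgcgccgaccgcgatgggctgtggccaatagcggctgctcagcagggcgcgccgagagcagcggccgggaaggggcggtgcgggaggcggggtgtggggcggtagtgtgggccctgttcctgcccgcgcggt
BNIP3: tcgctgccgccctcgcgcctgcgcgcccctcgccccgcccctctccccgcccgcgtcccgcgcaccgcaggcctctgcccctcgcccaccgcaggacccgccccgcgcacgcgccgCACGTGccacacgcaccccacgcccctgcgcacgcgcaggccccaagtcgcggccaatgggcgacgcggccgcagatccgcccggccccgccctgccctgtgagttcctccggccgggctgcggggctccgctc
A match of these letters describes the sequence and is not evidence of binding. All promoters printed above hold a match, while those of PDK1, SLC2A1, PFKL and ENO1 held none in this window.

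Ribosomal protein mRNAs begin with a run of pyrimidines that ties their translation to growth signals. Of 77 cytosolic ribosomal protein genes, 69 were higher with sgL1ASP #1, with a median of 0.094, and their summed FPKM was 140279 in mock and 151608 with sgL1ASP #1. With sgL1ASP #3 against mock 56 were higher, with a median of 0.059. Among the 12 other protein-coding genes with FPKM of 1000 and above, 11 were higher, with a median of 0.10. With both FPKM sums set equal, the median of the ribosomal list was 0.00076.

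The most abundant ribosomal protein gene, RPL37A, was at FPKM 8135 in mock, 8671 with sgL1ASP #1 and 8328 with sgL1ASP #3, and RPL38 at 5503, 6323 and 6112. Past 1.5-fold were 1 rise and 2 falls (3.90%), all among genes listed at low FPKM. RPS28 was at 1.64, 3.88 and 1.97 and RPS27 at 6.62, 3.36 and 0.797. These genes have many near-identical copies in the genome, so their reads may be split among copies. Of 15 further genes that share the pyrimidine start, listed after values were seen, 13 were higher, with a median of 0.068. GNB2L1, a scaffold protein on the ribosome, was at 4916, 5088 and 5032. Mitochondrial ribosomal protein genes gave 39 of 76 higher and a median of 0.0025.

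The respiratory chain, whose subunits pass electrons to oxygen and make ATP, differed slightly. Of 37 complex I genes 24 were higher, with a median of 0.038, and of 39 genes of complexes II to V 30 were higher, with a median of 0.043. None of either list passed 1.5-fold. ATP5I was at FPKM 601 in mock, 729.7 with sgL1ASP #1 and 659.5 with sgL1ASP #3. With sgL1ASP #3 against mock the medians were 0.016 and 0.050.

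Genes of cell division showed no common direction. Of 46 S-phase and replication genes 20 were higher (median -0.019), of 44 cyclin and cyclin-dependent kinase genes 22 (0.0012) and of 53 mitotic spindle and kinetochore genes 23 (-0.012). No gene of these 3 lists was past 1.5-fold. PCNA, the sliding clamp of DNA polymerases, was at FPKM 278 in mock, 271 with sgL1ASP #1 and 261 with sgL1ASP #3. The cyclin-dependent kinase inhibitor CDKN1C, the largest change among the cyclin and kinase genes at 0.42, was at 5.87, 7.90 and 8.11. Kinesin genes, the motors of spindle and cargo, had 10 of 32 higher and a median of -0.045.

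Genes that were measured by real-time RT-PCR in the study were within 1.5-fold here. MAPK12, a p38-type kinase, was at FPKM 50.2 in mock, 60.2 with sgL1ASP #1 and 56.3 with sgL1ASP #3, a change of 0.26 with a counting error of 0.064. CLASP1, which stabilises microtubule ends, was at 9.40, 9.70 and 9.63, and CHFR, a mitotic checkpoint ubiquitin ligase, at 12.8, 13.4 and 13.3. The reference gene HPRT1 was at 113, 117 and 116. The differences of CLASP1, CHFR and HPRT1 were smaller than their counting errors of 0.073, 0.18 and 0.050.

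Nuclear pore genes were lower more often than higher, by small amounts. Genes that silence retroelements lay nearer to the share of all genes, of which 50.3% were higher. Of 19 nucleoporin genes 3 were higher, with a median of -0.055. NUP155, the lowest of them at -0.15, was at FPKM 25.3 in mock, 22.7 with sgL1ASP #1 and 22.2 with sgL1ASP #3. Of the same 19, 8 were higher with sgL1ASP #3, with a median of -0.012. Of 29 silencing genes 12 were higher (41.4%), with a median of -0.055, and none passed 1.5-fold. TRIM28, the corepressor that zinc finger proteins bring to retroelements, was at 205, 207 and 212, and the DNA methyltransferase DNMT3A at 6.19, 7.48 and 6.54. ZNF genes, many of which code for such zinc finger proteins, had 204 of 383 higher and a median of 0.018, with 2 rises and 3 falls (1.31%).

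Stress and signalling lists had medians between -0.059 and 0.078. Of 23 interferon-stimulated and nucleic acid sensing genes, 8 were higher, with a median of -0.059, and 3 fell (13.04%). Of these, IFI27 was at FPKM 5.84 in mock, 2.85 with sgL1ASP #1 and 4.69 with sgL1ASP #3. IFI35 was at 2.47, 1.30 and 0.659, and IFI6 at 7.12, 4.57 and 5.11. All 3 have FPKM under 8, and more abundant members such as HLA-C, at 226, 228 and 234, lay close to mock. Immediate early genes, the first transcribed after a stimulus, had 17 of 22 higher and a median of 0.078, and 0.13 with sgL1ASP #3. KLF4 was at 1.96, 2.44 and 2.65, and DUSP2 fell from 1.93 to 1.17.

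Of 25 genes of the p53 and damage response 17 were higher (median 0.057), with CDKN1A at FPKM 18.1 in mock and 18.5 with sgL1ASP #1. Genes of the unfolded protein response gave 17 of 26 higher (0.0066), genes of the amino acid response driven by ATF4 12 of 29 (-0.031) and heat shock and chaperonin genes 17 of 36 (-0.0050). Among the last, the inducible chaperone HSPA6 fell from 5.26 to 3.43, and it was at 3.23 with sgL1ASP #3. Cholesterol synthesis and uptake genes gave 11 of 25 higher (-0.0065).

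HOX genes, which mark position along the body axis, had 12 of 36 higher and a median of -0.071, with HOXC12 falling from FPKM 1.63 to 1.05. HOXA9 was at 38.0 in mock, 31.7 with sgL1ASP #1 and 34.2 with sgL1ASP #3, and HOXC11 at 11.4, 8.33 and 11.3. HOXA6, in the same cluster as HOXA9, was at 14.5, 17.1 and 17.2. With sgL1ASP #3 against mock, 15 of the 36 were higher, with a median of -0.052.

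Housekeeping and transport lists gave medians between -0.024 and 0.043. They were ubiquitin-conjugating enzymes (20 of 32 higher, median 0.043), translation initiation factors (35 of 55, 0.036), SLC25 mitochondrial carriers (22 of 37, 0.025), mitogen-activated protein kinases (21 of 37, 0.017) and proteasome subunits (20 of 34, 0.015). Splicing factors of the SR and hnRNP families gave 20 of 35 and 0.014, collagens and integrins 17 of 32 and 0.013, Wnt receptors and ligands 12 of 23 and 0.011, and solute carriers 95 of 178 and 0.0080. Ubiquitin-specific proteases gave 25 of 46 and 0.0074, aminoacyl-tRNA synthetases 17 of 37 and -0.0013, RNA helicases 21 of 48 and -0.013, tubulins and actins 10 of 24 and -0.015, and Rab GTPases 23 of 49 and -0.024. Across these 14 lists 3 genes rose, which were MAP2K6, RAB38 and COL18A1, and 3 fell, which were SLC16A4, SLC13A4 and TUBB3.

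Single genes of these lists stood out by size. The neuronal tubulin TUBB3 fell from FPKM 8.32 to 5.24 and was at 6.09 with sgL1ASP #3. COL18A1, the collagen from which endostatin is cut, rose from 3.92 to 6.20 and was at 5.06. MAP2K6, a kinase upstream of p38, rose from 1.03 to 2.15 and was at 1.65. AXIN1, a scaffold of the complex that degrades beta-catenin, was at 12.9, 17.5 and 16.3. In all of them the sgL1ASP #3 value lay between mock and sgL1ASP #1.

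**Figure D4:**
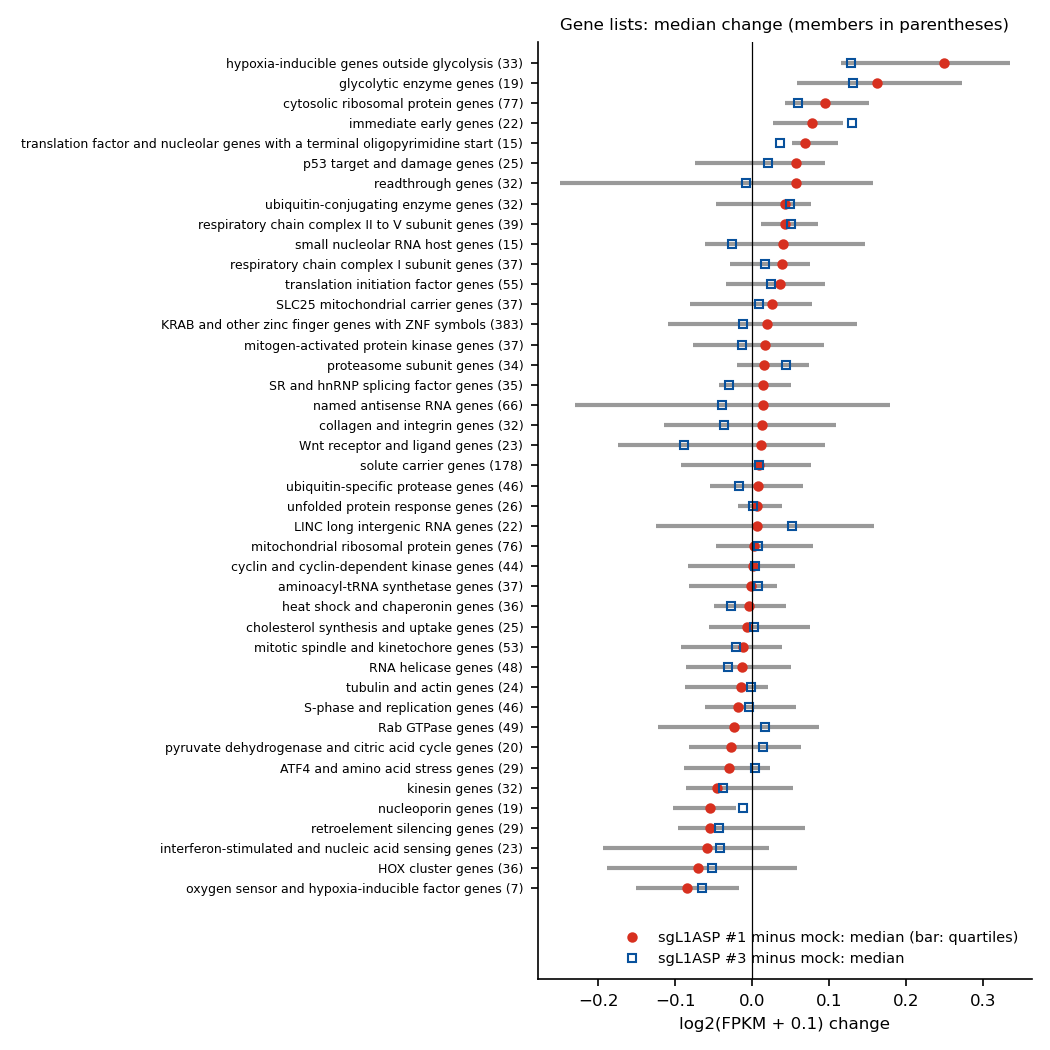
Each line is a gene list with its number of members. The filled point is the median log2 change with sgL1ASP #1 against mock, the bar runs between the quartiles, and the open square is the median with sgL1ASP #3 against the same mock library. Medians between 0 and 0.09 turn negative with both FPKM sums set equal. Small RNA lists and the clustered histone list (median -0.083) are not drawn. Of the lists drawn, the hypoxia-inducible, glycolytic and ribosomal protein lists are at the top (0.25, 0.16 and 0.094). The oxygen sensor, HOX and interferon lists are at the bottom (-0.084, -0.071 and -0.059). The hypoxia-inducible and oxygen sensor lists were made after values were seen, so their places may follow from that choice.

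Small RNA genes reached further on both sides, from -2.30 to 3.18, than protein-coding genes, which ran from -1.57 to 1.98. Small nucleolar RNAs (snoRNAs) guide the chemical modification of ribosomal and other RNAs. C/D box snoRNAs direct methylation and carry the boxes TGATGA and CTGA near their ends, and H/ACA box snoRNAs direct pseudouridylation and carry an ANANNA hinge and an ACA near the 3′ end. Most are cut from introns of host genes. They carry no poly(A) tail and are shorter than the fragments of an mRNA library, so a few reads become a high FPKM. Of 1578 small RNA genes listed, 1411 were at 0 in both libraries. Another 43 were at 0 in mock and at FPKM 1 or above with sgL1ASP #1, and 35 the other way round.

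The snoRNAs printed here, of those that could be placed on GRCh37, carry large falls (SNORA52, SNORA23, SNORD58C) and the highest FPKM (SNORD100), and are read 5′ to 3′ with the boxes in capitals. They are SNORA52 (chr11:811681-811814, plus strand), SNORA23 (chr11:9450320-9450501, plus), SNORD58C (chr18:47015615-47015678, minus) and SNORD100 (chr6:133137941-133138016, plus).
SNORA52: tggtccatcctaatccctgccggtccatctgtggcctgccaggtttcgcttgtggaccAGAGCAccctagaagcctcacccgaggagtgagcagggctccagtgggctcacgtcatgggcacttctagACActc
SNORA23: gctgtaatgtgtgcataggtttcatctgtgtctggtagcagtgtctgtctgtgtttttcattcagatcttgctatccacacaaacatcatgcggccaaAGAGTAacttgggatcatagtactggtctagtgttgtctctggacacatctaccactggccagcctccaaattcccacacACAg
SNORD58C: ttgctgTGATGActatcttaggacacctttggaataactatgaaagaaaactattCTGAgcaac
SNORD100: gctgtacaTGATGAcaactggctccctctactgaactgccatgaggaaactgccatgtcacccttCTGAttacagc
SNORA52 and SNORA23 are of the H/ACA kind, and SNORD58C and SNORD100 of the C/D kind. Near the 3′ end of SNORA23 several ACA matches overlap. The last is in capitals, and its box may be an earlier one.

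SNORA52 was at FPKM 111 in mock, 22.4 with sgL1ASP #1 and 107 with sgL1ASP #3, so it fell by 2.30 on the log2 scale. It lies within RPLP2, a ribosomal protein gene, whose own FPKM was 3546, 3780 and 3563. SNORA23 was at 19.1, 4.85 and 11.5, and its host, the nuclear import receptor IPO7, at 76.6, 74.1 and 74.4. SNORD58C was at 1659, 672 and 1597, and its host RPL17 at 189, 195 and 176. In these 3 the snoRNA fell, while the change of the host with sgL1ASP #1 was between -0.048 and 0.092.

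SNORA20 rose from 24.1 in mock to 121 with sgL1ASP #1 and was listed at 0 with sgL1ASP #3. SNORA29, from the same host TCP1, a chaperonin subunit, rose from 17.97 to 72.3 and was also listed at 0 with sgL1ASP #3. TCP1 itself was at 155, 161 and 148. SNORD127, in an intron of the splicing factor gene PRPF39, rose from 142 to 430 and was listed at 0 with sgL1ASP #3. SNORD100, in an intron of RPS12, fell from 12440 to 6301 with sgL1ASP #1 and was at 22454 with sgL1ASP #3.

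The hosts varied less than the small RNAs inside them. Of the 87, 66 could be placed and 55 lay inside a gene on the same strand that was itself at FPKM 1 or above. Their median absolute change was 0.57, and 26 were past 1.5-fold. The 45 hosts had a median absolute change of 0.074, ran from -0.23 to 0.21, and none was past 1.5-fold. Small RNA genes can rest on a few reads, so counting may spread them more than their hosts. Its share in the contrast was not tested. TAF1D, a subunit of the RNA polymerase I factor, hosts SNORA8, SNORA18, SNORA25 and SNORA40. It was at 101 in mock and 117 with sgL1ASP #1, while SNORA18 and SNORA25 were each at 23.9 and 48.5, SNORA40 at 58.5 and 88.9, and SNORA8 at 92.3 and 112.

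**Figure D5:**
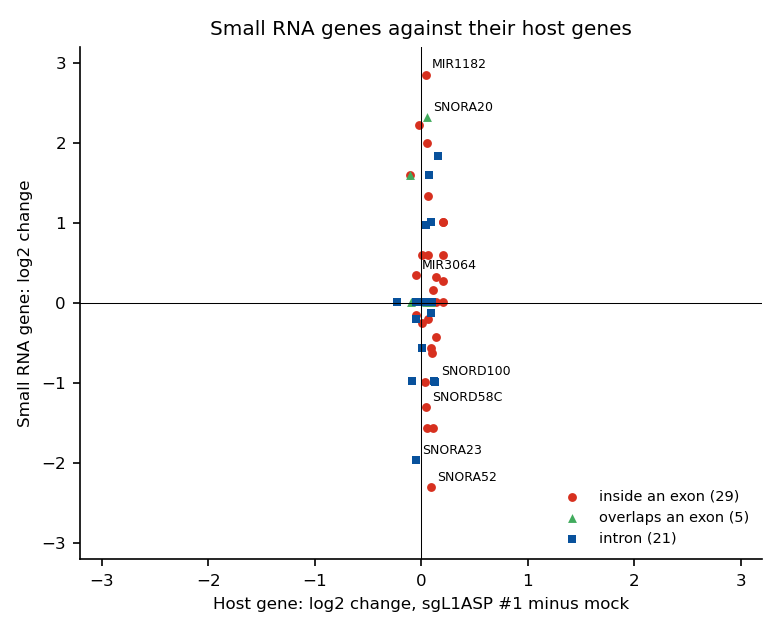
The log2 change of 55 small RNA genes with sgL1ASP #1 against mock is plotted against that of the gene that contains them on the same strand, on equal axes. Points are marked by whether the small RNA lies inside an annotated exon (29, retained introns included), overlaps one (5) or lies in an intron (21). The points form a vertical band, with hosts between -0.23 and 0.21 and small RNAs between -2.30 and 2.86.

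MicroRNA genes varied in the same manner, with 7 rises and 2 falls among 21 at FPKM 1 or above, of 1216 listed. A microRNA is cut from a hairpin to about the length of the sequences below, which are far too short for this library, so the values count longer RNA over the hairpin. Mature RNAs are printed from RefSeq (GRCh38.p14) with the seed, bases 2 to 8, in capitals. They are those of the largest rises and the largest fall that could be placed, and of the highest FPKM.
hsa-miR-1182: gAGGGUCUugggagggaugugac
hsa-miR-922: gCAGCAGAgaauaggacuacguc
hsa-miR-622: aCAGUCUGcugagguuggagc
hsa-miR-3064-5p: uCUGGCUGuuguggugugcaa
hsa-miR-3064-3p: uUGCCACAcugcaacaccuuaca
These 5 seeds differ from each other.

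MIR1182 rose from FPKM 43.1 in mock to 313 with sgL1ASP #1 and was at 64.4 with sgL1ASP #3, while the gene that contains it, FAM89A, was at 31.2, 32.1 and 35.2. MIR922 rose from 281 to 1317 and was at 133 with sgL1ASP #3, with its host KIAA0226 at 4.62, 4.56 and 4.43. MIR622 fell from 5639 to 2580 and was at 4816 with sgL1ASP #3. MIR3064, the highest FPKM of all, was at 20424, 26055 and 20936, and lies in an exon of the helicase gene DDX5, at 195, 188 and 191. Reads of such an exon and of the hairpin cannot be told apart here.

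Small RNA values moved in steps. For 22 of the 87, the change was that of equal read numbers in both libraries (0.019, within 0.001). The FPKM of SNORA1, SNORA31 and SNORA55 with sgL1ASP #1 was the same share of mock, 0.3377. Such shared values can arise from small read numbers, so large changes here may rest on a few reads, which was not tested. The summed FPKM of all small RNA genes was 81488 in mock (13.1% of the library) and 105790 with sgL1ASP #1 (16.0%). They made up 58.5% of the rise in summed FPKM between the libraries. SNORA9, the largest rise, was at 23.01 in mock, 209.8 with sgL1ASP #1 and 55.4 with sgL1ASP #3, and SNORD76 was at 2675, 9483 and 9655. MIR600 rose from 123 to 525 and was at 689. Of other large falls, SNORA31 went from 155 to 52.4 and was at 31.1, while SNORA1, from 77.6 to 26.2, and SNORA55, from 59.5 to 20.1, were listed at 0 with sgL1ASP #3. RMRP, the RNA of the RNase MRP ribozyme, rose from 2.77 to 15.4 and was at 11.7.

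Histone mRNAs of the replication-dependent clusters also lack a poly(A) tail. Of 73 listed, 11 were at FPKM 1 or above in both libraries, with 2 rises and 2 falls. HIST1H3H fell from 3.95 to 1.82, and HIST1H3B rose from 1.44 to 3.29. HIST3H2A, the most abundant, was at 28.1 and 26.5. No clustered protocadherin gene of 55 reached FPKM 1 in both libraries.

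Among the 32 readthrough genes, COMMD3-BMI1 rose from FPKM 3.82 to 8.06 and was at 2.91 with sgL1ASP #3, and BLOC1S1-RDH5 fell from 10.1 to 5.26 and was at 5.67. The most abundant, BCL2L2-PABPN1, was at 85.1, 88.4 and 111. These genes share exons with their parent genes, so their values are uncertain. Of 66 named antisense RNA genes, 34 were higher, 1 rose (PCNA-AS1) and 1 fell (MCF2L-AS1, from 3.01 to 1.93), and of 22 LINC genes 12 were higher and none passed 1.5-fold. LINC00493 was at 105 in mock, 126 with sgL1ASP #1 and 116 with sgL1ASP #3. Of 15 host genes of snoRNAs 10 were higher, and SNHG8, the most abundant, was at 1215, 1249 and 1175.

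Position and transcript features of the 11576 placed protein-coding genes moved the change little. Medians by chromosome ran from -0.018 to 0.020 over 23 chromosomes of 107 to 1167 genes. By GC content of the transcript, the median was -0.0029 in 1504 genes up to 40% GC and 0.015 in 2108 genes above 60%, and these were -0.013 and 0.034 with sgL1ASP #3 against mock. By length of gene, the median was 0.025 in 427 genes up to 3 kb, -0.017 in 1862 genes of 100 to 300 kb and -0.0071 in 358 genes above 300 kb. With sgL1ASP #3 against mock these were 0.042, -0.024 and -0.039. By length of transcript it was 0.010 in 889 genes up to 700 bases, 0.015 in 1508 genes of 700 to 1000 bases and -0.017 in 1554 genes above 5000 bases. With sgL1ASP #3 against mock these were 0.014, 0.0094 and -0.021. Short genes were thus slightly higher in both guide libraries, by less than the median absolute change of all genes with sgL1ASP #1, 0.091.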

How the data were processed

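RNA-seq libraries of 293T cells, 1 for each of 3 conditions, were compared, and sgL1ASP #1 against mock is the comparison reported. Per the study's methods, total RNA was prepared with a column kit that keeps small RNA, and libraries with a stranded mRNA kit. The submitters' processing notes name TopHat2 2.0.13, Bowtie2 2.2.3, SAMtools 0.1.19, Cufflinks 2.2.1 and the build hg19. The deposited files hold FPKM per gene, which the authors computed with Cuffdiff; read counts were not used here, and the gene annotation is not given in the sources used here. No value column was without a sample (0).

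Tables were joined on gene name. Genes with FPKM of at least 1 in both libraries were kept, and changes were taken as differences of log2(FPKM + 0.1), with Python 3.11.15, pandas 2.3.3, NumPy 2.4.6 and matplotlib 3.10.9. A gene past 1.5-fold in FPKM + 0.1 is said to have risen or fallen. With 1 library a condition no test was made, and p-values are not given. Positions and transcript lengths came from GENCODE 44 on GRCh37, matched by symbol. The reads of each gene, and from them the counting errors, were estimated from FPKM, transcript length and a depth read from the spacing of low values in transcripts of at least 1000 bases. The depth estimate took 200 bases off each transcript length, while the reads were worked out with the full length. Reads of short transcripts may thus be overstated and their counting errors too small. All counting errors cover counting only. Alternatives were other pseudocounts, filters, scalings, thresholds and classes. The procedure was tested on simulated data.

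The genes described and the gene lists were chosen with earlier results of these data known. Named genes are the 8 largest rises and 8 largest falls overall and among protein-coding genes with mean FPKM of at least 10, the 5 highest in FPKM, the highest, most raised and most lowered member of each list, and the genes of the study's RT-PCR. Genes named beyond this rule, and 4 of the lists (hypoxia-inducible, pyrimidine start, citric acid cycle and oxygen sensor), were chosen after values were seen. Some items are not reported here.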

Additional observations from a re-analysis of the deposited data

Results flagged for a closer look

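Against the mock library, which both comparisons share, 4 of the named genes were past 1.5-fold in opposite directions with the guides, and all 4 are small RNA genes. Other named genes also differed in sign between the guides, with at least 1 of the changes inside 1.5-fold. The change of MIR922 was 2.23 with sgL1ASP #1 and -1.08 with sgL1ASP #3. SNORA20, at 2.32 with sgL1ASP #1, and SNORA29, at 2.002, were listed at 0 with sgL1ASP #3. The change of SNORD100 was -0.98 with sgL1ASP #1 and 0.85 with sgL1ASP #3. With 1 library a condition, the difference between the guides was not tested. Small RNA values moved in steps, so these opposite changes may rest on a few reads, which was not tested either.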

How the results depend on the processing

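Of 1499 values recomputed under 11 settings, 13 moved by more than the limits used, all of them counts and spreads. No named gene past 1.5-fold changed its direction. The limit was 1.5-fold for counts and spreads, and 0.585 for log2 changes and medians of log2 changes. The largest list median was 0.25, so that limit could hardly call a list median moved. Gene list medians, which have no call, changed sign for 26 of 46 lists with both FPKM sums set equal, for 4 with FPKM of at least 10 in both libraries and for 1 with each of the looser filters. Against 117 genes higher and 136 lower by more than 1.5-fold, a pseudocount of 1 gave 62 and 50, a filter on mean FPKM of at least 1 gave 228 and 230, no filter gave 1074 and 1093, and FPKM of at least 10 in both libraries gave 26 and 17. A 2-fold threshold gave 31 and 23. With both FPKM sums set equal, 82 were higher and 224 lower, and the median absolute change was 0.0968 at FPKM 30 to 100 and 0.0533 at FPKM 1000 and above. The filters and the threshold change how many genes can pass, while for the other settings the cause was not tested. A pseudocount of 0.01 gave 133 and 151, median-ratio scaling 117 and 138, and leaving out small RNA and readthrough genes 88 and 114. No paired analysis was possible because the comparison holds 1 library a side. For the same reason no library could be left out, and a difference between cultures cannot be told apart from one between guides. Below FPKM 10, where 155 of the 157 protein-coding genes past 1.5-fold lie, the median difference of all genes is close to that of counting alone. That median does not describe the genes past 1.5-fold themselves. Some of them changed by more than 4 times their counting error and others by less, and the cause was not tested.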
